A study of Mus musculus with 12 samples.

Results

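The fatty acid desaturases and elongases are represented here by 10 genes: the stearoyl-CoA desaturase genes Scd1 and Scd2, the polyunsaturated fatty acid desaturase genes Fads1 and Fads2, and the elongase genes Elovl1, Elovl2, Elovl3, Elovl5, Elovl6 and Elovl7. They were taken by name, with every probe set annotated to one of them alone. That gave 10 probe sets of 35557 on the array that carried macrophage and liver RNA, which measures 19938 genes by a probe set with 1 symbol, and 19 probe sets of 22690 on the aorta array, which measures 12394 such genes. Messenger RNA levels were compared in mice lacking Apoe, the controls, and in mice lacking both Apoe and Prkch, the knockouts, all on the C57BL/6J background after over 12 generations of backcrossing. Prkch encodes protein kinase C eta, and apolipoprotein E, which every mouse in the study lacks, serves the uptake of lipoproteins from blood. Peritoneal macrophages, elicited with thioglycolate and not stimulated further, were those of female mice fed a regular diet. Each genotype has 3 such arrays, from mice of 18, 17 and 27 weeks for replicates 1, 2 and 3. Livers came from males of 20 weeks that had 12 weeks of high-fat diet and were fed again before sampling, and gave 2 arrays per genotype. The aortas were those of fed males of the same age and diet, and each of the 2 aorta arrays held RNA pooled from 4 mice. The part of Prkch that was removed is not given in the sources used here.

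Desaturases put a double bond into a fatty acid bound to coenzyme A, and elongases carry out the condensing step that lengthens its carbon chain, both in the membrane of the endoplasmic reticulum. The Scd enzymes turn saturated into monounsaturated fatty acids, while Fads2 and Fads1 act in turn, with Elovl5 and Elovl2 between and after them, to build long polyunsaturated fatty acids from dietary precursors. In liver many of these genes are known targets of SREBP-1c and LXR, transcription factors that respond to insulin and to oxysterols, and their products enter triglycerides, phospholipids and cholesteryl esters.

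Promoter windows, from 250 bases before to 50 bases after a transcript start, were held by the RefSeq table (GRCm38.p6) for 6 of the 10 genes, in 8 windows. Scd1, Scd2, Fads1 and Elovl3 had no entry. The 4 windows below were chosen by the values of their genes. Elovl1 was the gene most in favour of macrophages, and Fads2 was far higher in liver. Elovl2 read high in liver and near the bottom of the scale in macrophages, and its difference is not counted as a result. Among genes with a window, Elovl6 differed most between genotypes in liver by its unadjusted p, without passing the test. Capitals mark matches, on either strand, to a GC box (GGGCGG) or a CCAAT box (CCAAT). The Elovl1 window is chr4:118427843-118428142 on the plus strand, the Elovl2 window chr13:41220354-41220653 on the minus strand, the Fads2 window chr19:10101454-10101753 on the minus strand and the Elovl6 window chr3:129532136-129532435 on the plus strand, each written in the direction of transcription.
Elovl1: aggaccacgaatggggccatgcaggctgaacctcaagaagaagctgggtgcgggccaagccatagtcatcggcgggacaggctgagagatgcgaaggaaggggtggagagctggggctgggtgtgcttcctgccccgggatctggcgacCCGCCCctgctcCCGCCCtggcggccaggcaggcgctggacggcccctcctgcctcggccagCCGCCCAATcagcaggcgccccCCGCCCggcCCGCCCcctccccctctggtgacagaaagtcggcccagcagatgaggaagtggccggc
Elovl2: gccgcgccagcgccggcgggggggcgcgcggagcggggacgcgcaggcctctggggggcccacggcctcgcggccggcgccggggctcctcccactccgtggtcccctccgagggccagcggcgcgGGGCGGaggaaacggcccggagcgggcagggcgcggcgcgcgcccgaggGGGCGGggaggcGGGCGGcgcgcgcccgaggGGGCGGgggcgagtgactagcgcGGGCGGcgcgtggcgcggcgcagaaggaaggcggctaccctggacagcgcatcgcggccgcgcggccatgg
Fads2: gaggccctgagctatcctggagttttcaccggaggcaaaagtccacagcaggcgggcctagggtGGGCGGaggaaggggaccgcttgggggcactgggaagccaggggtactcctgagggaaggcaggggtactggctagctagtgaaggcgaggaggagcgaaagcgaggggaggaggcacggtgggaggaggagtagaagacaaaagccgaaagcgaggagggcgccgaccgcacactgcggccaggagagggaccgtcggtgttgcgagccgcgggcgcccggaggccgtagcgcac
Elovl6: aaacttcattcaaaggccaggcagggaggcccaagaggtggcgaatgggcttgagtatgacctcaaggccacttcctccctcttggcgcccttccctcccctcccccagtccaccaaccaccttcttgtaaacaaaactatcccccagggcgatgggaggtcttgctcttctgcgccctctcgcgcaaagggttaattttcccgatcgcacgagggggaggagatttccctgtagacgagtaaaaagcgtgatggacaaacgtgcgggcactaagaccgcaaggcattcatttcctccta

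The Elovl1 window held 5 GC boxes and 1 CCAAT box, 1 pair of which overlapped, the Elovl2 window held 5 GC boxes, the Fads2 window 1 GC box and the Elovl6 window neither. Among all 32851 windows of that length in the table, 35.7% held a GC box and 37.4% a CCAAT box. A sterol regulatory element (TCACNCCAC) was in 1.24% of windows and an E-box-like SREBP site (TCANNTGA) in 8.39%, and neither set of letters was in any of the 8 windows of these genes. Elovl1 and Elovl2 have another window each, not printed because it holds fewer matches: 2 GC boxes and no CCAAT box for Elovl1, and neither for Elovl2.

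The arrays give signals and no counts, so their number limits the precision. The median log2 value of an array was 6.57 to 6.77 in macrophages and 5.88 to 5.93 in liver. Tied values divided the macrophage arrays into control 1, control 2 and knockout 1, called batch 1, and control 3, knockout 2 and knockout 3, called batch 2, whose pairs shared between 16075 and 18000 identical values; the labels name no batch. Prkch, by its brighter probe set, read 9.94, 9.86 and 9.31 log2 units in control macrophages 1 to 3 and 9.36, 8.79 and 8.87 in the knockouts, so that knockout 1 lay just above control 3 of the other batch. In control livers it read 6.57 and 6.87, against 5.93 and 5.65 in knockout livers. The dimmer Prkch probe set read 7.06, 7.14 and 6.85 in control macrophages and 6.85, 6.62 and 6.62 in the knockouts. In liver that probe set did not separate the genotypes, at 4.08 and 4.04 against 3.94 and 4.21. In the aorta pools Prkch had a signal of 17.2 in the control and 9.94 in the knockout, both under the filter of 32.6 used there. The tissues matched their labels by markers, with the macrophage gene Cd68 between 13.05 and 13.68 on the macrophage arrays and the albumin gene Alb between 14.20 and 14.27 on the liver arrays. The B cell gene Ms4a1 stood at 10.13 in knockout macrophage array 2 and between 6.46 and 8.26 on the other 5.

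In control animals, 8 of the 10 genes lay above the brightness filter in both liver and elicited macrophages. Of these, Scd1, Fads2 and Elovl6 were far higher in liver. The others differed less, and Elovl1 and Elovl7 were higher in macrophages. After each array's median was subtracted, macrophages minus liver was -6.55 log2 units for Scd1, -5.82 for Fads2 and -3.02 for Elovl6, while it was 1.84 for Elovl1. Elovl2 and Elovl3 lay below the brightness filter in macrophages and entered the comparison only through liver, where they are high, so they are described without a call. Of the other 8 genes 7 were called by limma, with Benjamini-Hochberg adjustment over 15560 genes and a threshold of 0.05, 5 as higher in liver and 2 as higher in macrophages. Among the 14590 genes above the filter in each tissue 65.7% were called, 28.9% as higher in liver and 36.8% as higher in macrophages. Elovl2 and Elovl3 also fell under the threshold in this fit. That is not counted as a result, since they passed the filter only through the tissue where they are high. Of all 15560 genes tested 67.1% were called, 31.1% as higher in liver and 36% as higher in macrophages. Sex, diet, age, tissue and processing differ together between these 2 groups and cannot be told apart.

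Among the desaturases, Scd1, the main desaturase of liver for making oleate, stood at 7.62 and 7.15 log2 units above the array median in control livers and at 1.33, 0.64 and 0.54 in control macrophages. The groups lay far apart, with a difference of -6.55 ± 0.23 (SE; limma, Benjamini-Hochberg adjusted p = 9.16e-09). Scd2, its widely expressed relative, stood at 2.18 and 2.28 in livers and at 2.40, 2.23 and 1.47 in macrophages. The liver values fell within the macrophage range, and the difference of -0.19 had a 95% interval from -0.73 to 0.34 (limma, adjusted p = 0.484), so that among the 8 genes Scd2 alone was not called. Its sign depended on the scaling and the arrays: it was 0.59 higher in macrophages on the values as deposited (limma, adjusted p = 0.062), 0.088 higher without macrophage replicate 3, and 1.02 higher when knockout arrays took the place of control arrays (limma, adjusted p = 0.00895). On the deposited scale the median of all genes stood 0.80 higher in macrophages, against 0.02 after centring, and calls divided into 11811 higher and 1788 lower in macrophages, against 5604 and 4838. Quantile normalization gave 5099 higher and 5301 lower.

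Fads2, which takes the first step of polyunsaturated fatty acid synthesis, stood at 5.86 and 5.26 above the median in livers and between -0.37 and -0.14 in macrophages. Fads1, which makes arachidonic acid, was less unequal: 4.56 and 3.83 in livers against 2.81, 2.65 and 2.20 in macrophages, a difference of -1.65 ± 0.23 (SE; limma, adjusted p = 0.00015). Neither gene's groups overlapped, but the share of all genes without overlap between these tissues was not counted. Elovl2, the elongase that lengthens the longest polyunsaturated fatty acids, stood at 5.88 and 5.82 in livers and between -1.48 and -1.10 in macrophages, and Elovl5, which lengthens the products of Fads2, stood at 5.88 and 5.81 against 3.94, 4.25 and 3.95. Elovl2 gave a difference of -7.19 from values below the filter in macrophages, and Elovl5 one of -1.80 ± 0.12 (SE; limma, adjusted p = 1.07e-06).

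Of the elongases of saturated and monounsaturated chains, Elovl6, which turns palmitate into stearate, stood at 3.80 and 3.74 in livers and at 1.03, 0.66 and 0.55 in macrophages. Elovl3, known from brown fat, skin and male liver, stood at 3.22 and 3.85 in livers and between -1.70 and -1.44 in macrophages. Its difference of -5.06, like that of Elovl2, rests on macrophage values near the bottom of the scale. Elovl1, which makes the very long saturated chains of sphingolipids, ran the other way at 4.69, 4.72 and 4.57 in macrophages and 2.81 and 2.83 in livers (limma, adjusted p = 2.42e-07). Elovl7 was low in both, between -0.65 and -0.35 in macrophages and at -0.89 and -0.83 in livers. Its difference of 0.38 ± 0.12 was called (limma, adjusted p = 0.0186) but not without macrophage replicate 1 (adjusted p = 0.054), macrophage replicate 2 (0.070), liver replicate 1 (0.091) or liver replicate 2 (0.058), nor between knockout arrays (0.127).

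**Figure D1:**
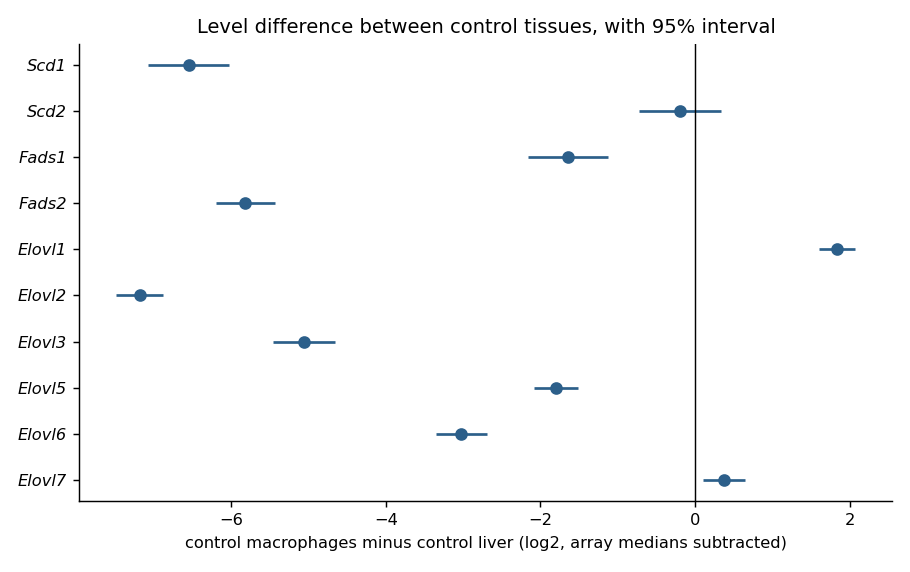
Difference in log2 level between control macrophages (3 arrays) and control livers (2 arrays) for each gene after subtraction of array medians, with points for the limma estimate and bars for its 95% interval. Elovl2 (-7.19), Scd1 (-6.55), Fads2 (-5.82) and Elovl3 (-5.06) lie far on the side of liver, Elovl1 (1.84) on the side of macrophages, and the interval of Scd2 crosses 0. Elovl2 and Elovl3 are below the brightness filter in macrophages.

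The levels of every gene on every array of macrophages and liver are plotted by group, on a log2 scale that differs from panel to panel.

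**Figure D2:**
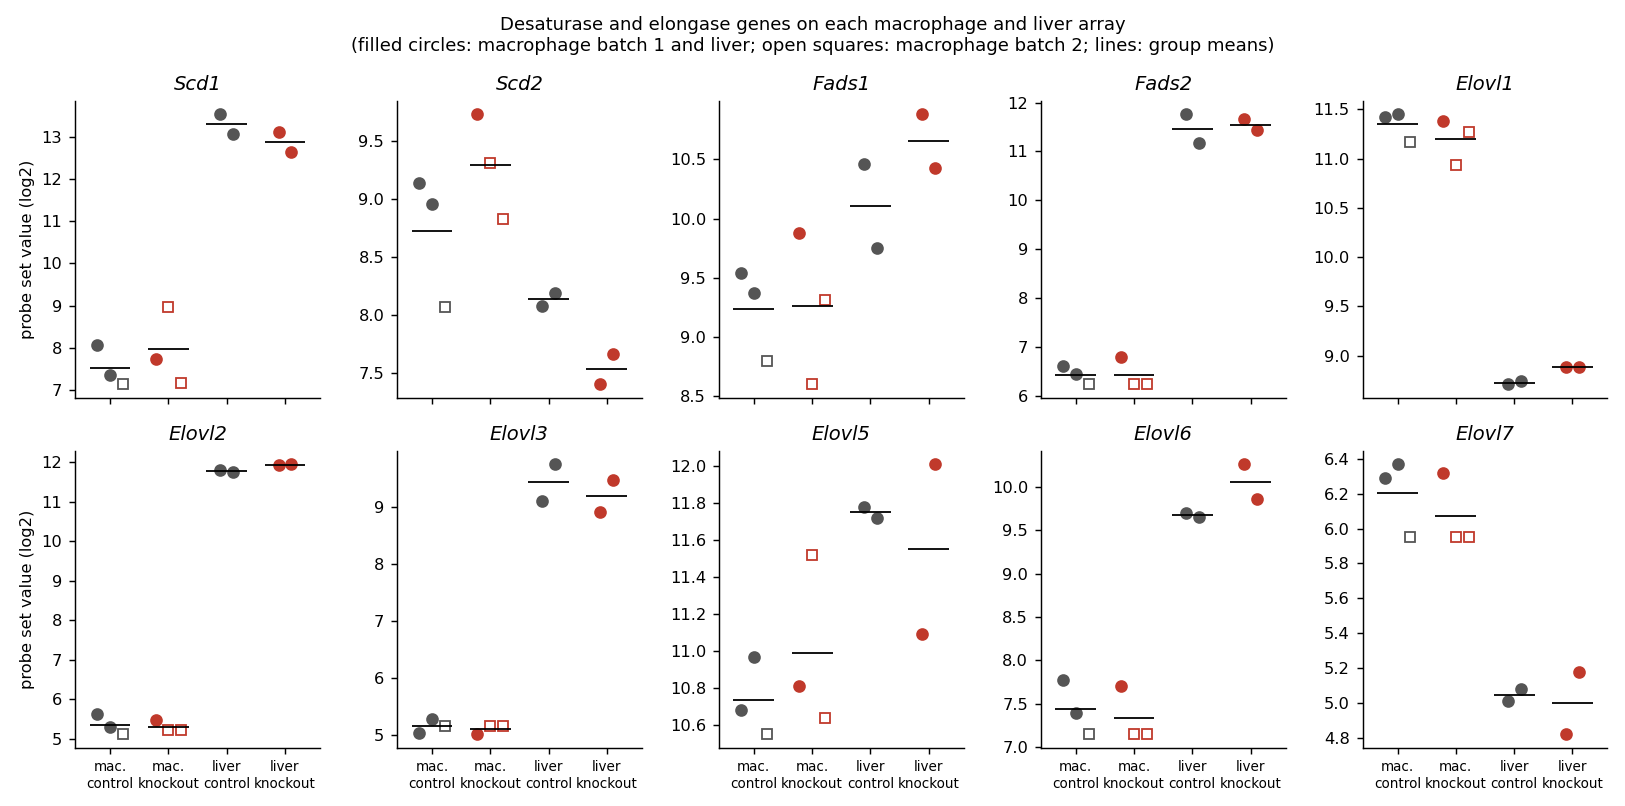
Deposited log2 probe set values of the 10 genes, with 1 point per array and a line at each group mean (grey controls, red knockouts, open squares for macrophage batch 2; each panel has its own vertical axis). The 2 knockout livers lie below both control livers for Scd2 and above them for Elovl1, Elovl2 and Elovl6, and no gene separates the 3 knockout from the 3 control macrophage arrays.

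In liver, no desaturase or elongase passed the test between genotypes. Of the 10 genes, 5 were higher and 5 lower in knockouts, 0 were called by limma at an adjusted p under 0.05, and 2 had an unadjusted p under 0.05, namely Scd2 and Elovl6. Over all 15942 genes 0.00627%, a single gene, was called, and 4.29% had an unadjusted p under 0.05, 1.54% higher and 2.75% lower in knockouts. Without the filter on dim genes Elovl6 had an unadjusted p of 0.0510, and with array medians subtracted Fads1 had one of 0.0478. The median difference of the 10 genes was 0.02 log2 units, against -0.02 over all genes.

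Scd2 read 8.08 and 8.19 log2 units in control livers and 7.40 and 7.66 in knockout livers. Both knockouts lay below both controls, and the group means were 8.14 ± 0.076 and 7.53 ± 0.19 (SD, n = 2 each). The difference was -0.61 ± 0.15 (SE), with a 95% interval from -0.94 to -0.28, or 65.5% of the control level (limma, unadjusted p = 0.00295, Benjamini-Hochberg adjusted p = 0.810). Leaving out any 1 of the 4 arrays gave differences between -0.74 and -0.48. Scd1 read 13.53 and 13.06 in the control livers and 13.11 and 12.64 in the knockout livers. Knockout 1 lay between the controls, so the groups overlapped, and the difference of -0.42 ± 0.21 (SE) had a 95% interval from -0.89 to 0.061 (limma, adjusted p = 1.00). It was -0.18 both without control 1 and without knockout 2, and -0.65 without either of the other 2 arrays.

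The polyunsaturated desaturase genes pointed the other way. Fads1 read 10.46 and 9.75 in the control livers and 10.88 and 10.43 in the knockout livers, and knockout 2 lay just under control 1. Its difference was 0.55 ± 0.25 (SE), with a 95% interval from -0.014 to 1.12 (limma, unadjusted p = 0.0547, adjusted p = 1.00). It ranged from 0.19 without control 2 and 0.33 without knockout 1 to 0.91 without control 1. Fads2 read 11.76 and 11.17 in the control livers and 11.66 and 11.43 in the knockout livers, both of the latter between the controls, a difference of 0.081 with an interval from -0.38 to 0.55.

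Elovl6 read 9.70 and 9.65 in the control livers and 10.26 and 9.86 in the knockout livers, without overlap. The difference was 0.38 ± 0.16 (SE), or 1.30-fold, with a 95% interval from 0.0073 to 0.75 on the log2 scale (limma, unadjusted p = 0.0466, adjusted p = 1.00). It was 0.18 without knockout 1 and 0.58 without knockout 2. Elovl1 and Elovl2 differed by 0.17 each with narrow groups: Elovl1 read 8.71 and 8.74 against 8.89 and 8.89, and Elovl2 read 11.79 and 11.74 against 11.92 and 11.95. Neither passed the test (limma, adjusted p = 1.00 for both). Elovl3 at 9.12 and 9.76 against 8.92 and 9.49, Elovl5 at 11.78 and 11.72 against 11.09 and 12.01, and Elovl7 at 5.01 and 5.08 against 4.82 and 5.18 all overlapped between genotypes. In all, 4 of the 10 genes had groups that did not overlap, 3 of them higher and 1 lower in knockouts, where 29.8% of all genes did not overlap, 11.8% higher and 18% lower.

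Markers of other cells were measured in the same livers, and none of those described here passed the test. All 11 macrophage markers had a lower mean in knockouts, with a median difference of -0.32 and a log2 summed level between 12.81 and 13.26 in controls and between 12.43 and 12.65 in knockouts; 0 of them were called by limma and 5 had an unadjusted p under 0.05, where 2.75% of all genes were lower at that level and 42.8% of all genes were higher. All 6 Kupffer cell markers (median -0.51; sums of 12.35 to 12.70 against 11.74 to 12.28) and all 7 white adipocyte markers above the filter (median -0.45; sums over the whole list of 10.32 to 10.33 against 9.65 to 10.01) had lower means, while the defining adipocyte gene Adipoq stayed below the filter. The Kupffer cell markers deviated from their control mean by a median of -0.79 in knockout 2 and of 0.14 in knockout 1, so that the 2 knockout livers were not alike in them. In control tissues 4 of 7 adipocyte genes measured were called higher in macrophages than in liver, so that list does not mark adipocytes alone. Lower means were not particular to these lists. All 7 endothelium markers (median -0.03) and 5 of 6 fibroblast markers (median -0.27) were lower in knockouts too. Hepatocyte markers had a median difference of 0.05, with 7 of 9 higher and sums of 16.79 to 16.83 against 16.78 to 16.87. Fewer cells of a type and less RNA per cell cannot be told apart in tissue RNA, and the part of these markers in the Scd2 difference was not tested.

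In macrophages, 8 of the 10 genes were bright enough to be tested, 4 higher and 4 lower in knockouts, and 0 were called by limma or had an unadjusted p under 0.05 in the fit without batch. Elovl2 and Elovl3 lay below the filter, between 5.12 and 5.64 and between 5.01 and 5.28 log2 units over the 6 arrays. Among all 15039 genes 0% were called and 0.698% had an unadjusted p under 0.05. With batch as a block Scd2 was the 1 gene of the 8 with an unadjusted p under 0.05, against 1.36% of all genes. None of the 8 genes tested had groups without overlap, against 2.25% of all 15039 genes. Fads2, Elovl6 and Elovl7 could not have separated, since control 3, knockout 2 and knockout 3 held 1 identical value for each. The same ties held for 41.2% of all genes tested, so the comparison says little. The median difference of the 8 genes was 0.01, against -0.04 over all genes.

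Scd2 read 9.14, 8.96 and 8.07 log2 units in control macrophages and 9.73, 9.31 and 8.83 in knockouts. Knockout 3 lay below controls 1 and 2, so the groups overlapped. Within each batch every knockout was above every control, but each batch holds few arrays and was drawn from tied values in these data. The share of all genes that separate in this way was not counted. The difference was 0.57 ± 0.33 (SE, n = 3 each; limma, adjusted p = 1.00), 0.68 within batch 1 and 1.00 within batch 2, and 0.84 ± 0.17 with batch as a block (limma, unadjusted p = 0.00445, adjusted p = 0.932). Leaving out control 3 gave 0.24 and leaving out knockout 1 gave 0.35, and the other arrays left out in turn gave 0.56 to 0.80. Scd1 read 8.06, 7.36 and 7.14 in control macrophages and 7.74, 8.98 and 7.18 in knockout macrophages, with knockout 2 above every other array. Its difference of 0.45 ± 0.47 (SE) was 0.03 within batch 1 and 0.94 within batch 2, and -0.062 without knockout 2.

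Elovl5 had the same high array, at 10.68, 10.97 and 10.55 in controls and 10.81, 11.52 and 10.64 in knockouts, and its difference of 0.26 became -0.0073 without knockout 2. That array also had the highest B cell markers: the 5 markers measured deviated there by a median of 1.59 log2 units from their control mean, against -0.62 to 0.68 on the other 5 arrays, and their log2 sum was 11.94, against 9.38 to 10.66. All 5 were above the filter. The array stood apart in other lists too, with the lowest fibroblast markers (median deviation -1.56, against -0.68 to 0.39 on the other arrays) and the highest macrophage (0.54), T cell (0.32) and mast cell (0.43) markers. The part of these lists in the Scd1 and Elovl5 values was not tested.

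Fads1 read 9.54, 9.37 and 8.80 in control macrophages and 9.88, 8.60 and 9.31 in knockout macrophages, and Elovl1 read 11.42, 11.45 and 11.17 against 11.38, 10.94 and 11.27. Both overlapped widely, with differences of 0.02 ± 0.34 and -0.15 ± 0.14 (SE; limma, adjusted p = 1.00 for both). Fads2, Elovl6 and Elovl7 each held 1 identical value on the 3 arrays of batch 2, 6.23, 7.15 and 5.95 log2 units respectively, as did 41.2% of all genes tested, so batch 2 gave a difference of 0 for each of them. Batch 1 gave 0.27 for Fads2, 0.13 for Elovl6 and -0.0081 for Elovl7. Over both batches their differences were -0.0076, -0.10 and -0.13, with 95% intervals that reached from -0.61 to 0.43 at most.

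**Figure D3:**
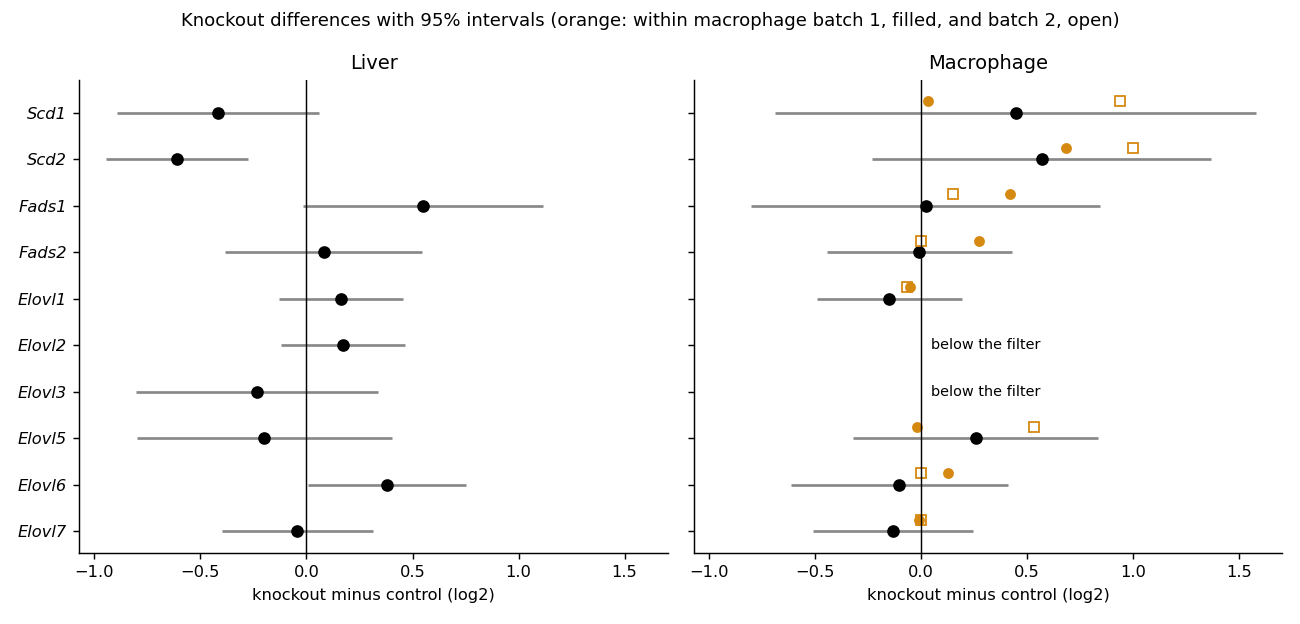
Knockout minus control difference of each gene in liver (2 arrays per genotype) and macrophages (3 per genotype) in log2 units, with black points for the limma estimate, bars for its 95% interval and orange symbols for the differences within macrophage batch 1 (filled) and batch 2 (open). The interval of Scd2 lies below 0 in liver (-0.94 to -0.28) and crosses 0 in macrophages (-0.23 to 1.37).

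Scd2 was thus lower than control in both knockout livers, and all 3 knockout macrophage arrays lay above the control mean of 8.72. The macrophage groups still overlapped, since knockout 3 lay below controls 1 and 2. The difference between these differences, macrophage minus liver over all 10 arrays, was 1.18 ± 0.45 (SE), with a 95% interval from 0.18 to 2.17 (limma, unadjusted p = 0.0247, Benjamini-Hochberg adjusted p = 1.00). It was 1.45 ± 0.23 with the macrophage batch as a block (limma, adjusted p = 0.781). Of the 10 genes 0 were called by this contrast and 1, Scd2, had an unadjusted p under 0.05, where 0% and 2.01% of 15548 genes did. Scd1 had a difference of 0.86 with an interval from -0.57 to 2.30, and the other 8 genes lay between -0.53 for Fads1 and 0.46 for Elovl5. By the labels, the contrast compares female macrophages on regular diet with male liver on high-fat diet.

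In the aorta, 8 of the 10 genes were above the filter of 32.6 signal units on the brighter array, 3 of them higher and 5 lower in the knockout pool, and 0 reached a 2-fold difference on the log2(signal + 16) scale, against 1.27% of 7098 genes. That scale understates changes of dim genes. Fads2, among the 3 higher, passed the filter only through the knockout pool. With 1 pool per genotype there is no replicate check and no test. The median difference of the 8 genes was -0.10, against -0.01 over all genes.

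Among the desaturases, Scd1 had a signal of 2833 in the control and 3412 in the knockout pool by its brighter probe set, and 1019 against 946.2 by the other, so its probe sets disagreed in direction. Scd2 had 1185 against 1020 by its brightest probe set, 54.1 against 85.9 by the second and 22.3 against 9.31 by the third, and these disagreed too. Fads1 had 72.7 against 108.8, and both probe sets of Fads2 were higher in the knockout pool, at 25.2 against 53.7 and 12.0 against 30.0. Of these Fads2 values only the 53.7 of the knockout pool reached the filter of 32.6. The Fads2 difference was 0.76 on the log2(signal + 16) scale and 1.06, past 2-fold, when 1 in place of 16 was added to the signal. With both arrays brought to the same median, Scd1 was 0.15 in place of 0.27, Scd2 -0.33 in place of -0.21, Elovl1 -0.28 in place of -0.18 and Elovl5 -0.13 in place of -0.02.

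Among the elongases, Elovl3 had a signal of 1213 in the control and 905.2 in the knockout pool. Elovl6 had 939.5 against 747.7 by 1 probe set and 642.0 against 534.2 by the other, both lower in the knockout pool. The probe sets of Elovl5 differed little between the pools, at 865.7 against 852.5 and 778.4 against 796.3. The 3 probe sets of Elovl1 were all lower in the knockout pool, the brightest at 197.0 against 172.4. Elovl2, at 2.10 against 0.167, and Elovl7, at 11.8 against 16.3, were below the filter, so only Elovl1 of the genes that favoured macrophages was measurable in the aorta.

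Markers of brown fat, white fat and skeletal muscle were mostly bright in both pools. The brown fat gene Ucp1 had a signal of 2598 in the control and 2754 in the knockout pool, and the 7 brown adipocyte markers summed to 10905 and 11023. White adipocyte markers, 8 measured, 1 of them below the filter, summed to 12128 and 13787. Skeletal muscle markers, 9 of 9 lower, summed to 14013 and 8799, adrenal cortex markers, 5 measured, to 27.5 and 1045, and B cell markers, 5 measured, to 101 and 659. In the control pool every adrenal cortex marker was below the filter, with Star the highest at 15.3. Of the B cell markers 3 were below the filter in both pools. The part of these tissues in the signals of the desaturases and elongases was not tested, and the aorta, measured on another array design, cannot be placed in the order of levels beside macrophages and liver.

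**Figure D4:**
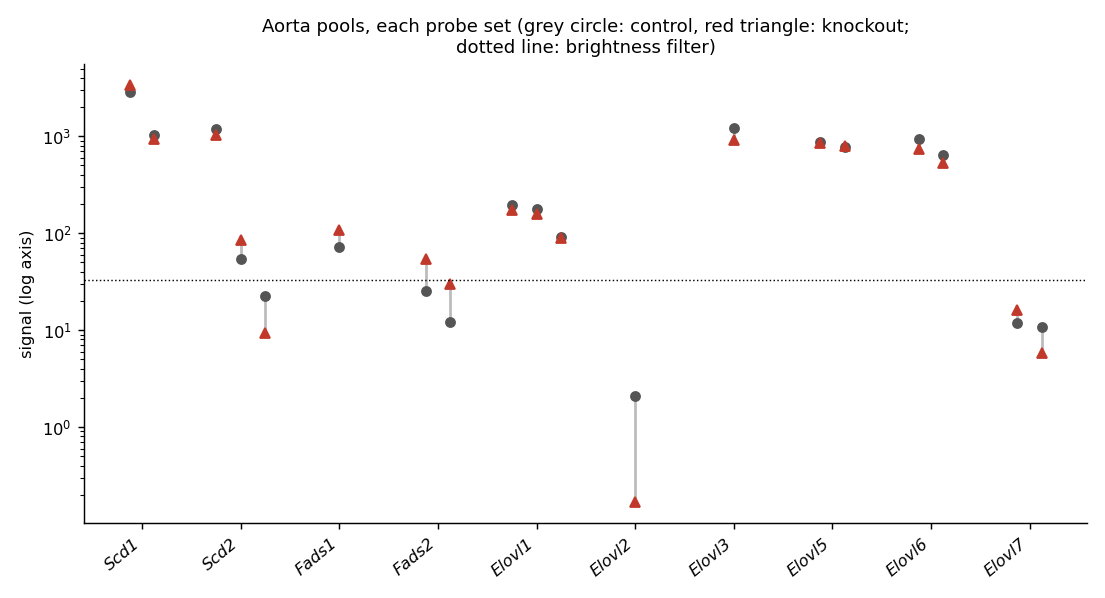
Signal of each of the 19 probe sets in the control aorta pool (grey circles) and the knockout aorta pool (red triangles) on a log axis, with the brightness filter of 32.6 as a dotted line. Both Fads2 probe sets are higher in the knockout pool, both Elovl6 probe sets and the Elovl3 probe set are lower, and the probe sets of Scd1 and of Scd2 point in different directions. Of the Fads2 values only that of the brighter probe set in the knockout pool lies above the filter.

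Other genes of the pathway were followed in lists. Fatty acid synthesis upstream of these enzymes, which makes the palmitate they act on, was measured in liver by 9 of 9 genes, 7 of them higher in knockouts, where 42.8% of all genes were, with a median difference of 0.21 and 4 at an unadjusted p under 0.05, all higher, where 1.54% of all genes were: Fasn, the synthase itself, at 1.02, the ATP citrate lyase gene Acly at 0.82, and the acetyl-CoA carboxylase genes Acacb at 0.69 and Acaca at 0.44. None passed limma's adjusted threshold (adjusted p = 1.00 for each), and the median over all genes was -0.02. Of the 10 desaturases and elongases 5 had the sign of these genes, Elovl6 and Fads1 among them. The other 5 had the opposite sign, Scd1 and Scd2 among them.

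The partners that complete each elongation or desaturation cycle, such as the reductase Tecr and the electron carrier Cyb5a, had a median of -0.05 with 4 of 10 higher. Other desaturases and elongases had a median of -0.09 with 1 of 7 higher, Degs2 at -0.24 and the ceramide desaturase gene Degs1 at -0.18 among the lower. Regulators had a median of -0.01 with 6 of 13 higher. Among them Pparg, a nuclear receptor of fat storage, differed by -1.06 (limma, adjusted p = 0.727), and Insig1, which retains SREBP in the endoplasmic reticulum and is itself an SREBP target, by 0.87 (limma, adjusted p = 0.832). Acyl-CoA synthetases had a median of -0.07 with 3 of 8 higher, Acsl4 at 0.38 and the transporter gene Slc27a1 at -0.55.

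Downstream of the enzymes, users of long-chain acyl-CoA had a median of -0.11 with 4 of 16 higher, among them Gpam, which starts glycerolipid synthesis, at 0.46. Peroxisomal chain shortening had a median of -0.24 with 1 of 9 higher, and its thiolase gene Acaa1b differed by -0.61 (limma, adjusted p = 0.989). Fatty acid binding genes had a median of -0.19 with 2 of 9 higher, Fabp4 at -0.45. By limma, 0 genes were called in any of these lists in liver or in macrophages, where the medians lay between -0.06 and 0.02. At an unadjusted p under 0.05 there were in liver 4 genes of fatty acid synthesis, 3 users of acyl-CoA, 2 regulators, 2 synthetases, 2 binding genes and 1 of peroxisomal shortening, and in macrophages 1 binding gene; over all genes the shares were 4.29% in liver and 0.698% in macrophages.

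**Figure D5:**
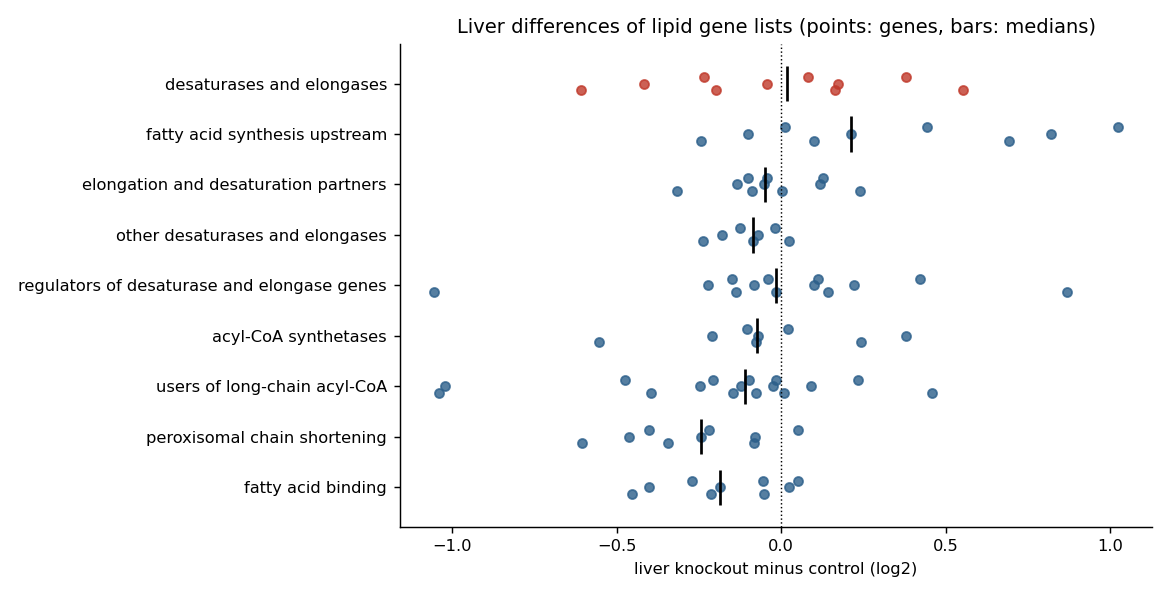
Knockout minus control difference in liver (log2, 2 arrays per genotype) of the 10 desaturase and elongase genes (red) and of the genes of 8 related lists (blue), with a point per gene and a bar at the median. The desaturases and elongases spread on both sides of 0 with a median of 0.02, fatty acid synthesis upstream has a median of 0.21, and peroxisomal chain shortening has a median of -0.24.

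The genes most like the 2 with an unadjusted p under 0.05 in liver were sought over the 10 macrophage and liver arrays, each tissue's mean subtracted, as a description. For Scd2 these were Mga (Pearson r = 0.89), Atp2b1 (0.89) and Limk1 (0.88). For Elovl6 they were Drd2 (0.99), Fam83e (0.98) and Zfp583 (0.97). Elovl6 held 1 identical value on the 3 macrophage arrays of batch 2, as did 41.2% of the genes tested in macrophages, so 3 of its 10 points were tied. The 10 arrays share batches within the macrophages, and these genes are the highest of all that were compared.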

How the data were processed

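Affymetrix Expression Console summarised the scans, per the submitters' processing notes. Which version and algorithm it ran is not given in the sources used here. Both macrophage and liver values were deposited on a log2 scale, and aorta values as linear intensity; the scales were read from the values, and the authors' normalization was not repeated. Names came from the platform annotation, and a gene was its brightest probe set with 1 symbol, kept at or above the 30th percentile of all probe sets (aorta: where the brighter array reached the median of 32.6).

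Liver, macrophages, control tissues and the difference between tissues were each fitted over all genes with limma 3.58.1 (lmFit, eBayes) in R 4.3.3, with Benjamini-Hochberg adjustment and a threshold of 0.05. Arrays named as replicates were taken as separate animals, so p-values measure the spread between arrays, which may be technical. The code was tested on simulated data. The naming rule took all 10 members, up to 4 per list by smallest p (aorta: largest difference), and the 3 genes most like each member with an unadjusted p under 0.05. Tecr and Cyb5a in liver, and Cd68, Alb, Ms4a1, Adipoq and Ucp1, were named outside it. The members and lists were chosen with earlier results of these data known. Alternatives changed the normalization, filter, probe set rule, variance prior, arrays, batch, pairing and pseudocount. A planned comparison of protein sequences was not run.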

Additional observations from a re-analysis of the deposited data

Results flagged for a closer look

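Scd2 pointed in opposite directions in the 2 settings, in neither of which it passed the test. Both knockout livers lay below the control liver mean, and every knockout macrophage array lay above the control macrophage mean. The macrophage groups overlapped, with knockout 3 at 8.83 below controls 1 and 2 at 9.14 and 8.96. Without control 3, at 8.07, the macrophage difference fell from 0.57 to 0.24. The share of all genes on opposite sides of these means was not counted. The difference between the differences was 1.18 log2 units, and limma over 15548 genes gave an unadjusted p of 0.0247 and a Benjamini-Hochberg adjusted p of 1.00, so it did not pass the threshold. Over the alternatives it ran from 0.85 to 1.45, with adjusted p from 0.426 to 1.00.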

How the results depend on the processing

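The count of desaturase and elongase genes called by limma stayed at 0 in liver, in macrophages and between the tissues under every alternative run, and at 9 between control tissues, or 8 to 9 when 1 array was left out; counting only genes above the filter in each tissue, an alternative chosen after seeing the data, it was 7 of 8. The count of 9 included Elovl2 and Elovl3, which passed the filter only through liver. On knockout arrays the 9 were not the same genes: Scd2, there higher in macrophages, took the place of Elovl7. The count past 2-fold in the aorta was 1 with log2(signal + 1), namely Fads2, which passed the filter only through the knockout pool. Of 48 single-gene checks in the aorta 11 moved by over 1.5 times or turned sign, from the scaling or the choice of probe set. Signs turned as follows. In macrophages Fads2 was 0.027 after quantile normalization, 0.024 with medians subtracted and 0.14 with batch as a block, and Elovl6 was 0.064 with that block. Between control tissues Scd2 was 0.59 as deposited and 1.02 on knockout arrays. Between the tissues' differences, Elovl7 was 0.039 and Fads2 0.055 with the macrophage batch as a block. Leaving out 1 array each gave these ranges: in liver, Elovl3 -0.55 to 0.085, Elovl5 -0.66 to 0.26, Elovl7 -0.22 to 0.13 and Fads2 -0.21 to 0.37; in macrophages, Elovl5 -0.0073 to 0.43, Elovl6 -0.29 to 0.067, Fads1 -0.29 to 0.35, Fads2 -0.20 to 0.087 and Scd1 -0.062 to 0.84; between control tissues, Scd2 -0.38 to 0.088; between the differences, Elovl3 -0.14 to 0.50, Elovl5 -0.00065 to 0.91, Elovl7 -0.26 to 0.089 and Fads2 -0.38 to 0.20. The cause was not tested. Of 480 checks of a test's result outside the aorta, 33 turned the sign and 5, all of Elovl7 between control tissues, lost a call. Over all genes, liver calls numbered 1, but 0 after quantile normalization, 0 without the filter, 23 with the replicate block and 39 without knockout replicate 2.

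With the replicate number as a block, Scd2 kept its difference of -0.61 in liver (limma, adjusted p = 0.155) and 0.57 in macrophages (adjusted p = 0.950), and no gene of the 10 was called. Same-numbered macrophage arrays came from mice of the same age, 18, 17 and 27 weeks. They correlated at 0.40, 0.030 and 0.50 in their deviations from the group means. The arrays numbered 1 and 3 correlated best with their own number, and those numbered 2, which lie in different batches, did not. These correlations cannot decide whether the numbers are pairs, so the main fit left the arrays unpaired and the block is an alternative. In liver the correlation was 0.11, from 2 numbers.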

Other observations

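Lists of genes that in liver follow the hour of day and the sex of the animal were measured as well. Of 16 circadian clock genes measured, 6 were higher and 10 lower in knockouts, with a median of -0.09; Ciart, a repressor of the clock, differed by -1.12, Per1 by -0.55 and Bhlhe41 by -0.42, all with a limma adjusted p of 1.00. Of 7 sex-biased liver genes, Elovl3 among them, 2 were higher and 5 lower, with a median of -0.19. Slco1a1 differed by 0.51 (limma, adjusted p = 0.989) and Cyp4a12b by -0.60 (limma, adjusted p = 1.00). The part of either list in the values of the desaturases and elongases was not tested.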
